A study of Homo sapiens with 16 samples.

Results

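The loci described here are 995 places in the genome of A549, a cell line derived from a human lung carcinoma, where a G-quadruplex signal was listed after depletion of BAZ2B, in neither the control cells nor the BAZ2A-depleted cells, and where control cells carried H3K4me3. They were chosen by the presence or absence of peaks in the deposited lists. The peaks of the 3 BG4 lists were merged into 6206 loci wherever they shared at least 1 base, and 1192 loci held a siBAZ2B peak but no siControl and no siBAZ2A peak. Of these, 995 shared at least 1 base with an H3K4me3 peak. They make up 16.0% of all merged loci and 18.0% of the 5517 merged loci on H3K4me3. Each of the 995 consists of a single siBAZ2B peak, so they also make up 20.5% of the 4865 siBAZ2B peaks. These percentages follow from the rule of selection and are given as the background for the counts below. The siBAZ2B list was the longest of the 3, with 4257 peaks in the siBAZ2A list and 3332 in the siControl list. On H3K4me3 there were 655 loci of siBAZ2A alone and 281 of siControl alone. With the 3 lists cut to equal length, the count for siBAZ2B alone was 645 in place of 995.

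G-quadruplexes (G4s) are structures into which guanine-rich single strands fold when guanines stack in planar groups of 4. They are found most often in the open chromatin of active promoters, where the strands separate during transcription, and unresolved G4s are known as obstacles to replication. BAZ2B and its relative BAZ2A are bromodomain proteins that act as regulatory subunits beside ISWI-type ATPases, which slide nucleosomes along DNA. BAZ2A is known best from the NoRC complex, which silences ribosomal RNA genes. H3K4me3, trimethylation of lysine 4 on histone H3, marks nucleosomes that flank active transcription starts.

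There were 4 groups of 4 libraries each, all made by CUT&Tag, an assay in which an antibody directs a transposase to cut and tag nearby DNA. A549 cells received siControl, siBAZ2A or siBAZ2B at 71 nM for 48 hours, and the antibody BG4, which recognises folded G4 DNA, was applied to each. H3K4me3 was mapped in siControl cells alone, so the state of the mark after siBAZ2B was not analysed here. Every group is represented by a single merged peak list without values per replicate, and no difference between conditions can be tested. The 95% intervals below reflect only the number of loci counted; variation among cultures does not enter them. The lists also do not tell whether a G4 forms in more cells or more strongly in the same cells. The depletion of BAZ2B itself was not analysed here. Positions are hg19, and an hg19 gene annotation and sequence were not used here, so loci are named by position alone and no sequence is shown.

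The siBAZ2B-only loci were narrow and of modest enrichment. Fold enrichment, the authors' value for a peak over its local background, ranged from 2.29 to 11.1 with a median of 5.54 and quartiles of 4.92 and 6.35. In the same siBAZ2B list, the peaks of loci held by both knockdowns but not siControl had a median fold of 6.16, those of loci shared with siControl alone 5.86, and those of loci in all 3 lists 6.74, all on H3K4me3. Median peak width followed the same order, with 430 bp for the siBAZ2B-only loci, 508 bp for those shared with siControl alone, 553 bp for both knockdowns and 681 bp for all 3 lists. Narrow peaks were not particular to siBAZ2B. On H3K4me3, siBAZ2A-only loci had a median width of 414 bp and siControl-only loci 406 bp. Their median folds, each taken from its own list, were 5.86 and 5.74. The shortest width in the siBAZ2B list was 299 bp. It was the width of 107 of the 995 loci (10.8%, 95% Wilson interval 8.98 to 12.8). The count was 35 of 872 loci for both knockdowns (4.01%, 2.90 to 5.53) and 11 of 298 shared with siControl alone (3.69%, 2.07 to 6.49). For all 3 lists it was 10 of 2207 (0.453%, 0.246 to 0.832). Since membership depends on how repeatably a peak was called in 3 lists, these values describe the selection and were not tested.

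**Figure D1:**
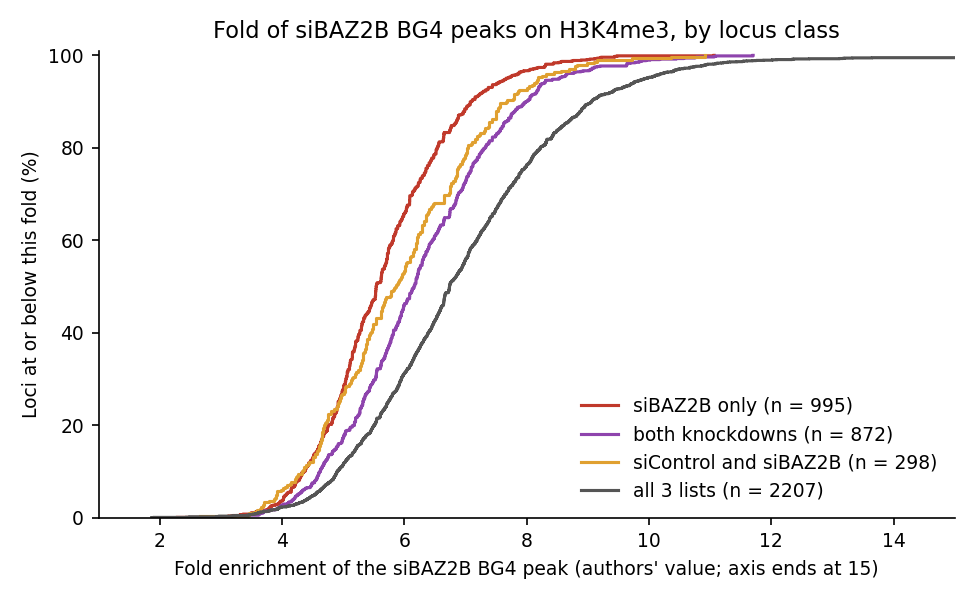
Cumulative share of loci on H3K4me3 (vertical axis, percent) by the fold enrichment of their strongest siBAZ2B BG4 peak (horizontal axis, authors' value), for the 4 classes of locus that hold such a peak. The curve of the siBAZ2B-only loci (median 5.54) rises first and that of the loci in all 3 lists (median 6.74) last, with broad overlap between all 4.

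Membership thinned out toward the top of the siBAZ2B list. With the siBAZ2B peaks split by fold into quintiles, 5 sets of equal size, siBAZ2B-only loci on H3K4me3 made up 29.4% of the weakest, 31.3% of the next, 22.4% of the middle, 13.5% of the fourth and 5.65% of the strongest. The 3 weaker quintiles together held 81.3% of the loci. Only 1 of the 100 strongest siBAZ2B peaks was among them, against 19 of the strongest 500 and 57 of the strongest 1000. The −log10 q of the loci ran from 1.31 to 15.97 with a median of 4.95, and 487 of them stood at 5 or above. The lowest value belonged to chr2:101924993-101925470, with fold 3.49, on a region of H3K4me3 fold 10.4.

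The strongest siBAZ2B-only locus was chr3:99979631-99980083, with fold 11.1 and rank 65 in the siBAZ2B list. Its H3K4me3 region was 906 bp wide with fold 13.8. The nearest siControl and siBAZ2A BG4 peaks both lay 231 kb away (230886 and 230848 bp). A gap separated it from the next locus, chr3:9404661-9405093, which had fold 9.48 and rank 219. The siBAZ2B peak at chr15:34629486-34630330 followed with fold 9.44. It was the widest of the leading 20, at 845 bp, and covered most of an H3K4me3 region of 1009 bp.

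From the fourth rank on, the leading loci differed little in fold. They were chr1:201123317-201123702 (fold 9.43), chr19:57049712-57050109 (9.21), chr1:211848768-211849332 (9.20), chr9:123605186-123605675 (9.15), chr14:19649803-19650326 (9.11), chr4:57396708-57397055 (9.03) and chr19:4867752-4868167 (8.99). The summit of the last, the base of highest signal in a peak, lay 3 bp from that of its H3K4me3 peak. The chromosome 14 locus had the closest neighbours of the 20, a siControl peak 6946 bp and a siBAZ2A peak 6951 bp away. The folds of the other leading loci fell from 8.89 at chr2:112456472-112456965 to 8.31 at chr19:52207182-52207515. Among them were chr10:29228501-29228972 (8.76), chr11:14541650-14542076 (8.73), chr6:86388484-86388921 (8.57), chr3:58419288-58419860 (8.56) and chrX:52987674-52988286 (8.53). On chromosome 5, chr5:69586097-69586589 and chr5:118323860-118324402 had the same fold of 8.43. All 20 stood in H3K4me3 regions without any siControl or siBAZ2A BG4 peak.

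The H3K4me3 regions under these loci were wider than the average marked region, although less wide than those of loci found in every condition. They had a median width of 1313 bp (quartiles 1016 and 1569), against 1125 bp for all 18596 H3K4me3 peaks and 998 bp for the 13127 without BG4 in any list. The regions of loci in both knockdowns had a median of 1392 bp, those of loci in all 3 lists 1484 bp, and those of siBAZ2A-only loci 1361 bp. A region wider than 1125 bp lay under 671 of the 995 loci (67.4%, 64.5 to 70.3). This was 6.42 percentage points below the share for both knockdowns (95% Newcombe interval of the difference −10.5 to −2.27) and 8.91 points below that for all 3 lists (−12.3 to −5.54). From siBAZ2A-only loci it differed by 0.872 points, with an interval of −3.73 to 5.54. With a −log10 q of at least 5 the difference from all 3 lists was −5.67 points (−9.60 to −1.88). Here and below, loci were classed anew under this cut, so the set also held loci outside the 995. The difference from both knockdowns was no longer apart from 0 with peaks of −log10 q of at least 5 (−2.99, −7.81 to 1.90) or with lists of equal length (−4.09, −9.28 to 1.21). With the stronger 50% of H3K4me3 peaks alone neither difference was (−2.08 from both knockdowns, −7.60 to 3.49, and −2.55 from all 3 lists, −7.31 to 2.12).

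Across the whole H3K4me3 list, 994 of 18596 peaks (5.35%) carried a siBAZ2B-only locus. This share rose with width and then fell again. It was 2.66% (2.19 to 3.23) in the narrowest quintile, 3.36% in the next, 6.24% in the middle, 8.31% (7.46 to 9.24) in the fourth and 6.16% (5.43 to 6.98) in the widest. Loci in all 3 lists rose without such a turn, from 3.41% of the narrowest to 23.7% (22.4 to 25.1) of the widest peaks, and siBAZ2A-only loci rose from 1.91% to 5.49%. Loci of both knockdowns also stopped rising, with 7.42% (6.62 to 8.31) in the fourth and 7.39% (6.60 to 8.28) in the widest quintile. A region that already holds a siControl or siBAZ2A peak rarely holds a siBAZ2B-only locus as well, so the shares were also taken over the 14103 H3K4me3 peaks with neither. There they were 2.91%, 3.86%, 8.02%, 12.1% (10.9 to 13.4) and 10.2% (9.03 to 11.6), in order of rising width. The drop in the widest quintile was smaller in this set, and its interval overlapped that of the fourth. For siBAZ2A-only loci over the 13763 peaks without siControl or siBAZ2B the corresponding shares rose throughout, from 2.11% to 6.80% in the fourth and 9.26% (8.09 to 10.6) in the widest quintile. A wide region also offers more bases for a peak to overlap.

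**Figure D2:**
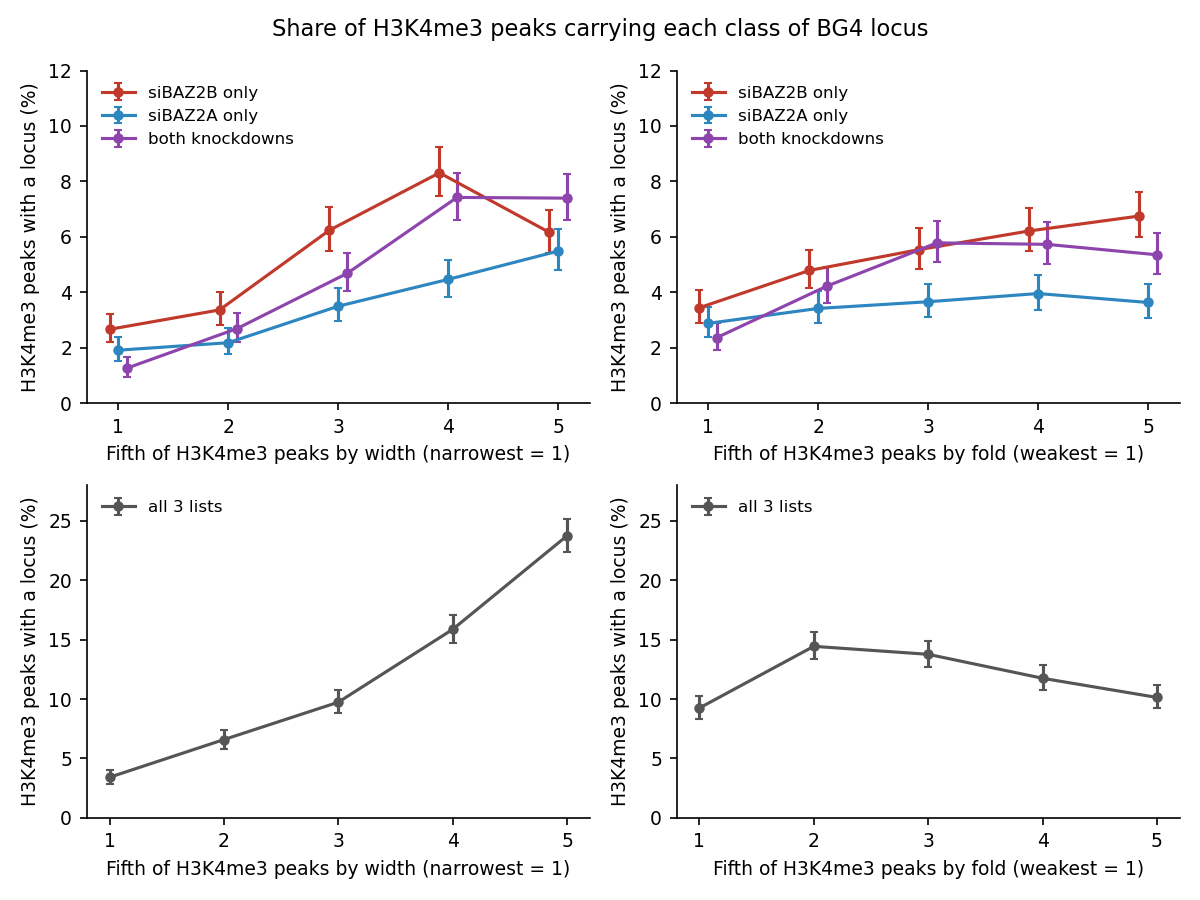
Share of H3K4me3 peaks (vertical axes, percent, with 95% Wilson intervals) that carry a locus of each class, by quintile of H3K4me3 width (left) and fold (right); the upper and lower panels have different vertical scales. The siBAZ2B-only share is highest in the fourth quintile of width (8.31%) and in the strongest quintile of fold (6.75%), whereas the share of loci in all 3 lists is highest in the widest quintile (23.7%) and in the second of fold (14.4%).

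The widest region under a siBAZ2B-only locus measured 3202 bp, chr20:10652278-10655479. Its BG4 peak at chr20:10654704-10655026 had fold 5.31 and a summit 27 bp from the H3K4me3 summit. The second widest, on chromosome 8, is not printed, and the next were chr5:172195522-172198353 (2832 bp), chr2:46524010-46526836 (2827 bp) and chr17:2302597-2305355 (2759 bp). H3K4me3 fold was low in all 4, between 4.10 and 4.38. The chromosome 17 region also held siControl and siBAZ2A peaks, and its siBAZ2B-only locus lay at one end of it, 1250 bp from the former and 1187 bp from the latter.

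By the fold of the H3K4me3 peak, the siBAZ2B-only loci lay in stronger regions than loci present in all lists. The median H3K4me3 fold under them was 8.63 (quartiles 6.82 and 10.5), against 8.03 over all H3K4me3 peaks, 8.24 for siBAZ2A-only loci, 8.55 for both knockdowns and 7.96 for all 3 lists. The H3K4me3 fold exceeded 8.03 at 591 loci (59.4%, 56.3 to 62.4). That was 10.6 points more than for all 3 lists (6.83 to 14.2) and 6.42 points more than for siBAZ2A-only loci (1.53 to 11.3), while the difference from both knockdowns was 0.452 points (−4.004 to 4.92). With lists of equal length the difference from siBAZ2A-only loci was 13.4 points (7.71 to 18.9). Width and fold of H3K4me3 ran against each other, with a Spearman's rho of −0.348 over the 995 loci. Both values come from the same merged H3K4me3 list and peak caller. Within quintiles of H3K4me3 width the difference from siBAZ2A-only loci was −0.185 points (−3.89 to 3.52) and that from all 3 lists 1.14 points (−1.84 to 4.11), so neither stood apart from 0, and that from both knockdowns was −3.24 points (−6.76 to 0.276). Within quintiles of siBAZ2B fold the difference was 4.90 points from both knockdowns (0.437 to 9.36) and 18.1 points from all 3 lists (14.3 to 21.9).

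The share of H3K4me3 peaks with a siBAZ2B-only locus rose from 3.44% (2.90 to 4.08) in the weakest quintile by fold to 6.75% (5.99 to 7.60) in the strongest. For loci in all 3 lists the corresponding shares were 9.25% and 10.1%, with 14.4% in the second quintile. They were 2.37% and 5.35% for both knockdowns, and 2.88% and 3.63% for siBAZ2A-only loci. When width and fold were split at their medians, wide and strong H3K4me3 peaks carried a siBAZ2B-only locus most often, at 8.49% (7.72 to 9.34) of 4569 peaks. Wide and weak peaks followed with 5.93% (5.29 to 6.64), narrow and strong ones with 4.27% (3.73 to 4.89), and narrow and weak ones with 2.71% (2.28 to 3.22). The order was the same for loci of both knockdowns (7.64%, 6.25%, 3.49% and 1.38%). It was also the same for siBAZ2A-only loci (4.75%, 4.57%, 2.75% and 1.95%). Loci in all 3 lists had another order there, with 19.97% of the wide and weak and 16.1% of the wide and strong peaks.

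The strongest H3K4me3 region under a siBAZ2B-only locus was chr2:232276688-232277288, with fold 18.2 and rank 8 in the H3K4me3 list. Its BG4 peak, chr2:232276953-232277625, had a middling fold of 5.62 and extended past the edge of the marked region, with its summit outside. The second strongest, on chromosome 8, is not printed, and the next 3 held BG4 peaks of similar fold, 5.62 at chr9:129676748-129677274 (H3K4me3 fold 15.9), 6.03 at chr16:31454103-31454551 (15.6) and 5.43 at chr10:73137039-73137337 (15.4). Over all 995 loci, BG4 fold and H3K4me3 fold had a Spearman's rho of 0.241. When the loci were ranked by BG4 fold and split into 4 sets of 248 or 249, the share, from the weakest set to the strongest, in strong H3K4me3 regions was 44.6% (38.5 to 50.8), 57.8%, 65.3% and 69.9% (63.9 to 75.2). The share in wide regions showed no such order, with 67.1%, 64.3%, 70.2% and 68.3%.

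G4 signal in these loci peaked near the summit of the H3K4me3 mark. The median distance between the summits was 118 bp (quartiles 46.5 and 251). Other classes had similar medians, 123 bp for siBAZ2A-only loci, 138 bp for both knockdowns and 124 bp for all 3 lists. Their upper quartiles were 275, 300 and 328 bp. Of the 995 siBAZ2B-only loci, 744 (74.8%, 72.0 to 77.4) had summits within 250 bp. This share was 6.58 points higher than for all 3 lists (3.20 to 9.85) and 5.97 points higher than for both knockdowns (1.88 to 10.1). Against siBAZ2A-only loci, whose summits come from the siBAZ2A list, the difference was 2.41 points (−1.90 to 6.81). The difference from both knockdowns was not apart from 0 with a −log10 q of at least 5 (2.24, −2.56 to 7.07) or with lists of equal length (2.49, −2.53 to 7.57). With the stronger 50% of H3K4me3 peaks neither it nor the difference from all 3 lists was (2.85, −2.01 to 7.75, and 1.96, −2.22 to 5.95). With lists of equal length the difference from siBAZ2A-only loci was 5.53 points (0.455 to 10.6). Within quintiles of siBAZ2B fold the differences were 8.64 points from both knockdowns (4.50 to 12.8) and 11.3 points from all 3 lists (7.76 to 14.8). A wider region leaves room for longer distances, and no strata of H3K4me3 width were taken for this measure. Among the loci themselves, 67.5% of the weakest of the 4 sets by BG4 fold (61.4 to 73.0) and 83.9% of the strongest (78.9 to 88.0) had summits within 250 bp.

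**Figure D3:**
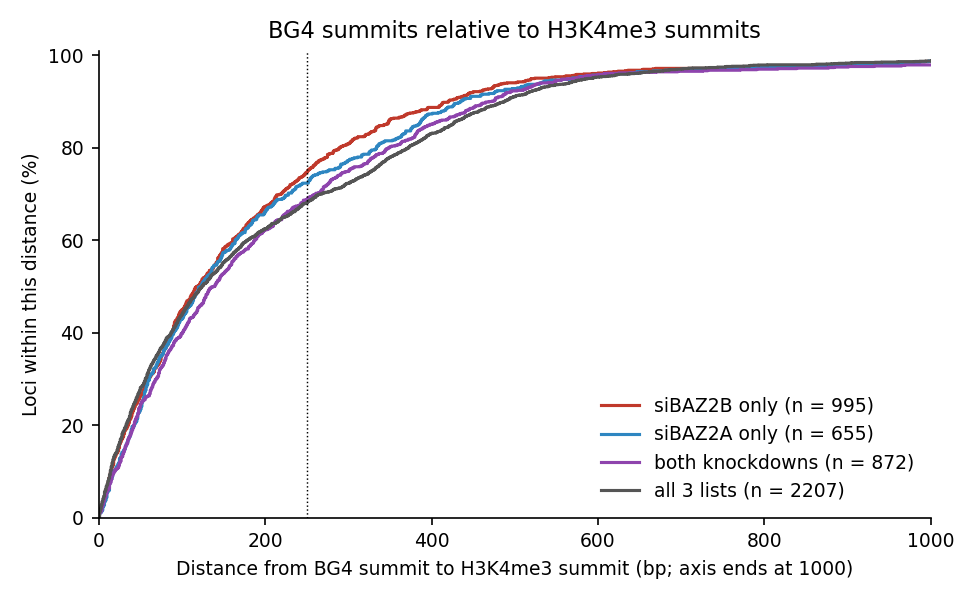
Cumulative share of loci on H3K4me3 (vertical axis, percent) by the distance from BG4 summit to nearest summit of an overlapped H3K4me3 peak (horizontal axis, bp), for 4 classes of locus; the dotted line marks 250 bp. At that line the siBAZ2B-only curve stands at 74.8%, against 72.4% for siBAZ2A-only loci, 68.8% for both knockdowns and 68.2% for all 3 lists.

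The whole siBAZ2B peak lay inside H3K4me3 at 826 loci (83.0%), and the summit lay inside at 980. Since the rule requires an overlap, these counts are a description. A locus covered a median of 34.5% of its H3K4me3 region. At the boundary of the rule, the smallest overlap with H3K4me3 was 5 bp, at chr10:101597907-101598205 (fold 6.16), and the next on an assembled chromosome was 57 bp, at chr2:25301426-25301840 (5.53). Just outside it, chr22:40897264-40897714 (fold 4.50) and chr14:77422929-77423438 (4.27) missed an H3K4me3 peak by 11 and 22 bp.

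**Figure D4:**
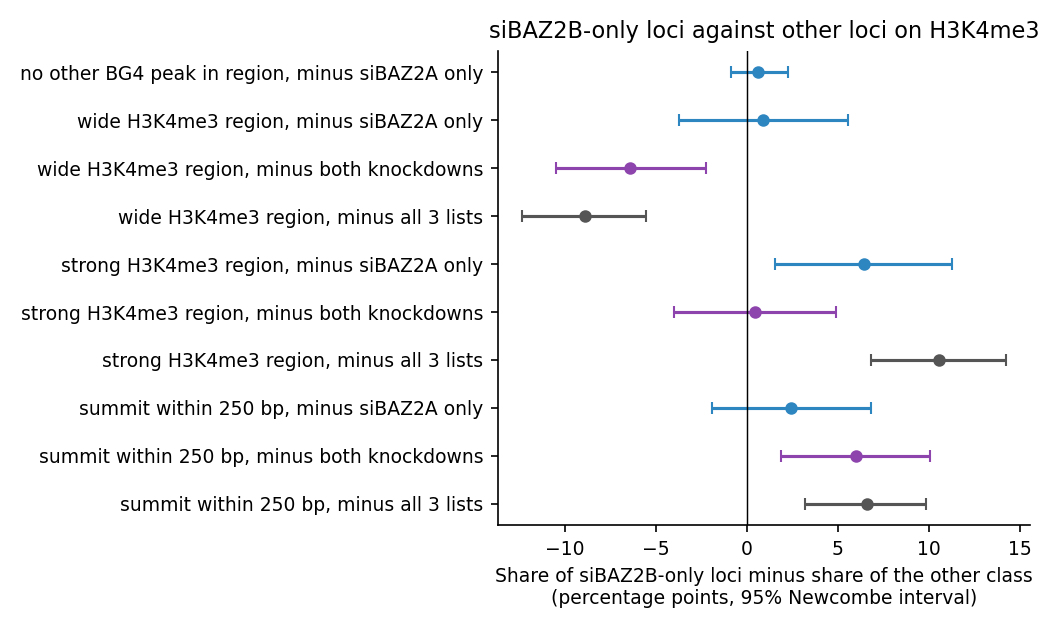
Share of siBAZ2B-only loci minus the share of the other class (horizontal axis, percentage points, with 95% Newcombe intervals) for the 10 comparisons made, with all classes on H3K4me3. Intervals lie below 0 for wide regions against both knockdowns and all 3 lists, and above 0 for strong regions against siBAZ2A-only and all 3 lists and for summits within 250 bp against both knockdowns and all 3 lists.

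At 975 of 995 siBAZ2B-only loci (98.0%) the H3K4me3 region held neither a siControl nor a siBAZ2A BG4 peak. The corresponding share for siBAZ2A-only loci, without siControl or siBAZ2B, was 97.4%, a difference of 0.585 points (−0.861 to 2.26). Of all 18596 H3K4me3 peaks, 75.8% held no siControl and no siBAZ2A peak. The rule already bars any overlap with those lists and the regions are short, so it largely sets these shares, which are a description. The nearest siControl peak was a median of 148 kb away (quartiles 41.1 and 501) and the nearest siBAZ2A peak 107 kb (32.5 and 309). Within 1 kb of a locus lay a siControl peak in 9 cases and a siBAZ2A peak in 15.

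In the 20 other cases a G4 peak of another condition occupied a different place in the same marked region. A siControl peak was there in 11, a siBAZ2A peak in 16, and both in 7. The closest was chr4:119757356-119757654, with fold 4.74, only 40 bp from a siControl peak. At chr7:139025496-139025794 (fold 3.63) a siBAZ2A peak lay 55 bp and a siControl peak 293 bp away. At chr2:38978072-38978731 (4.81) and chr1:109817667-109818016 (6.53) siBAZ2A peaks lay 62 and 64 bp away, while siControl peaks were far off. The strongest of these loci near both lists was chr5:69006491-69006821, with fold 7.29, 163 bp from a siControl and 170 bp from a siBAZ2A peak. Just beyond the rule, chr3:159481776-159482181 (fold 5.60) shared 9 bp with a siBAZ2A peak, chr12:122065080-122065378 (3.52) shared 16 bp, chr3:33839749-33840149 (5.95) 21 bp and chr16:75467428-75467734 (5.34) 40 bp. The smallest overlap with a siControl peak was 30 bp, at chr6:13574662-13575132 (fold 6.75).

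In 3 cases an H3K4me3 region held a pair of siBAZ2B-only loci. On chr11:86666017-86667625 they had folds of 6.44 and 5.01 and lay 204 bp apart. On chr2:105654064-105655302 the folds were 5.15 and 4.15, with 145 bp between them, and on chrX:115003852-115005235 they were 3.32 and 3.10, with 381 bp. A further siBAZ2B-only locus, chrX:115001847-115002234, lay 1685 bp before that pair. Elsewhere the loci were scattered. Neighbouring loci were a median of 1240 kb apart, and 14 of 962 neighbouring pairs lay within 10 kb.

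Frequency per H3K4me3 peak was lowest on chromosome 6 and highest on chromosome 9. Their intervals did not overlap, but they were picked as the extremes, so this is no test of a difference. On the 23 chromosomes with at least 100 H3K4me3 peaks, the share of peaks with such a locus ranged from 3.44% on chromosome 6 (2.43 to 4.84) to 7.37% on chromosome 9 (5.71 to 9.47), a ratio of 2.15 between the highest and the lowest. On the other 21 the 95% interval held the overall 5.35%. The share on chromosome 9 was 5.36% (3.96 to 7.22) with a −log10 q of at least 5 and 5.63% (4.19 to 7.52) with lists of equal length. The ratio was 2.45 for siBAZ2A-only loci, 4.05 for both knockdowns and 5.53 for all 3 lists, whose lowest and highest were chromosome 6 (3.77%) and chromosome 19 (20.9%). Chromosome 6 was also the lowest for siBAZ2A-only loci, at 1.88%. The difference in spread between the classes was not tested, and the classes differ in their number of loci. On chromosomes 17 and 19, where loci in all 3 lists were most frequent, siBAZ2B-only loci occurred at 5.40% (4.25 to 6.83) and 4.71% (3.66 to 6.04) of H3K4me3 peaks.

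Among H3K4me3 peaks without a siControl or siBAZ2A peak, chromosomes 6 and 9 again marked the ends, with 3.92% (2.78 to 5.52) and 10.1% (7.85 to 12.9), against 6.91% overall. Chromosomes 17 and 19 had 7.88% (6.20 to 9.95) and 6.74% (5.23 to 8.65) in that set. By number, chromosome 1 held the most loci, with 94, followed by chromosomes 17 with 64, 12 with 63 and 2 with 59. Of all their H3K4me3 peaks, 5.35%, 5.40%, 6.33% and 5.25% carried such a locus, against 5.35% in the whole list. Chromosome Y held 1.

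**Figure D5:**
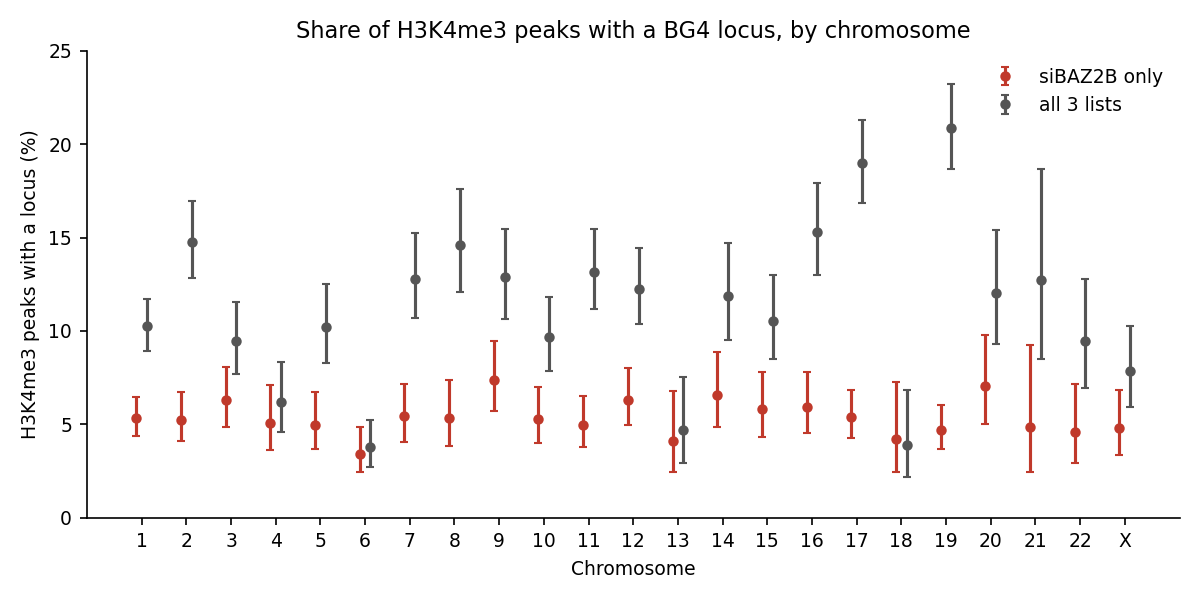
Share of H3K4me3 peaks (vertical axis, percent, with 95% Wilson intervals) that carry a siBAZ2B-only locus or a locus of all 3 lists, for the 23 chromosomes with at least 100 H3K4me3 peaks. The siBAZ2B-only shares stay between 3.44% and 7.37%, whereas those of the loci in all 3 lists range from 3.77% on chromosome 6 to 20.9% on chromosome 19.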

How the data were processed

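BG4 and H3K4me3 CUT&Tag peak lists of 16 libraries in 4 groups were used, 1 list per group. The submitters' processing notes name the aligner Bowtie2 (2.4.5), the peak caller MACS2 (2.1.4), SAMtools (1.15.1), and Picard with bedtools; dm6 and hg19 are the builds, without settings. Peaks found in 2 or more replicates were kept by the authors, per the labels' descriptions, by intersection against the largest replicate list. Drosophila spike-in chromatin was added, per the labels' protocols. The fold enrichment (a ratio) and the −log10 q-value of each peak are the authors' deposited values. They describe and rank peaks within a list. Neither read depth nor any spike-in scaling is given in the sources used here. A weak peak can pass in 1 list and miss another by the replicate requirement alone.

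Loci, their classes and region measures were computed with pandas 2.3.3 and NumPy 2.4.6 under Python 3.11.15, intervals with statsmodels 0.14.6 and SciPy 1.17.1, figures with matplotlib 3.10.9, and the classing was tested on simulated lists. Shares have Wilson intervals and differences between classes Newcombe intervals (95%), not adjusted over the 10 comparisons; stratified differences are Mantel-Haenszel estimates. A region is wide or strong above the median of all H3K4me3 peaks. Named loci are the 20 of highest fold, 5 each by width and fold of the H3K4me3 region, and those nearest the limits of the rule; 3 on chromosome 8 are not printed. Only 1 locus lay within the 50 bp set for closeness to another list, so loci farther off, those at the H3K4me3 edge and that of lowest q were added after their values were seen. The loci and measures were chosen with earlier results of these data known, and the strata and the peaks free of other BG4 signal after seeing these values. Transcription starts, G4 motifs and gene lists were planned but not analysed here, since they need hg19 sequence and annotation.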

Additional observations from a re-analysis of the deposited data

How the results depend on the processing

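Of 107 values under alternatives, 98 were planned, and 79 kept their direction and side of 0 (differences) or stayed within the interval or 1.5 times (shares and counts). Of the others, 11 moved, 9 were no longer apart from 0, 2 became so and 6 changed sign, all 6 with intervals that held 0. Among the 79, 4 differences apart from 0 changed by over 1.5 times: wide regions against all 3 lists to −5.67 points with a −log10 q of at least 5, strong regions against siBAZ2A-only loci to 13.4 with lists of equal length, and strong regions and summits against all 3 lists to 18.1 and 11.3 within quintiles of siBAZ2B fold. The count of 995 loci became 645 with BG4 lists cut to equal length and 591 with the stronger 50% of H3K4me3 peaks. Fewer peaks enter both. Loci were classed anew in each setting. Where a cut removed a siControl or siBAZ2A peak, a locus outside the 995 could enter the count. With a −log10 q of at least 5 this did occur, as the count below exceeds the number of the 995 at that q. Other counts were 706 with a −log10 q of at least 5, 973 with merging over 1 kb, 979 with at least 50% of the locus on H3K4me3 and 970 without chromosomes M and Y and contigs. With a −log10 q of at least 5, 99.2% stood in regions without another BG4 peak and 71.0% in wide ones; the differences from both knockdowns were −2.99 points for wide regions and 2.24 for summits, and chromosome 9 stood at 5.36%. With equal lengths, 99.5% stood in such regions and 66.4% in strong ones; the same 2 differences were −4.09 and 2.49, the summit difference from siBAZ2A-only loci was 5.53, and chromosome 9 stood at 5.63%. Merging over 1 kb gave 99.7% without another BG4 peak. With the stronger H3K4me3 peaks, 98.8% had no other BG4 peak and 79.7% had near summits. The differences for wide regions were then −2.08 from both knockdowns and −2.55 from all 3 lists, and those for summits 2.85 and 1.96; the share of strong regions could not be given, as the median is the limit itself. Chosen after seeing the data, stratifying by siBAZ2B fold put the strong-region difference from both knockdowns at 4.90, and stratifying by H3K4me3 width put that from siBAZ2A-only loci at −0.185 and that from all 3 lists at 1.14. The strong-region difference from both knockdowns, 0.452, changed sign to −0.111 with a −log10 q of at least 5, −0.377 with equal lengths and −3.24 within H3K4me3 width. The difference from siBAZ2A-only loci in regions without another BG4 peak, 0.585, changed sign to −0.308 with merging over 1 kb and −0.0317 with the stronger H3K4me3 peaks. The cause of these changes was not tested. Planned values over transcription starts and G4 motifs were not run, for lack of an hg19 reference here. No paired analysis was possible because the 4 replicates of a group share 1 merged list, so no replicate could be left out either. Depth is unknown, and a locus missing from a list is not shown to lack a G4.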

Other observations

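Another 197 loci with a siBAZ2B peak alone lay off H3K4me3. Their median fold was 5.20 and their median width 385 bp. They lay a median of 29410 bp from the nearest H3K4me3 peak, and 11 were within 1 kb of one. Of all siBAZ2B-only loci, 83.5% (81.3 to 85.5) were on H3K4me3, against 86.8% (84.1 to 89.0) for siBAZ2A-only loci, 77.8% (73.4 to 81.7) for loci shared with siControl alone, 93.3% (91.5 to 94.7) for both knockdowns, 95.05% (94.1 to 95.9) for all 3 lists and 72.2% (67.6 to 76.5) for siControl-only loci.

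Of the 995 siBAZ2B-only loci on H3K4me3, 24 lay on alternate haplotypes or unplaced contigs. Alternate haplotypes of chromosome 6 held 19, on 6 haplotypes with between 70 and 92 H3K4me3 peaks each, and those of chromosome 17 held 3. A sequence present on several haplotypes can be counted more than once.

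The peak names in each list carry the caller's running number, which rises along every chromosome, so a gap in the numbers between neighbouring peaks shows peaks of that run that were not kept. Each list carries the numbers of 1 run, which replicate it was is not stated, and nothing follows for the other replicates. No such gap was found around 51 of 983 siBAZ2B-only loci in the siControl list (5.19%, 3.97 to 6.76) and 115 of 980 in the siBAZ2A list (11.7%, 9.87 to 13.9). Around H3K4me3 peaks without BG4 the shares were 10.0% (9.52 to 10.6) and 20.7% (20.0 to 21.4). Where a gap exists, the position of the peaks left out is not known. The distance between the kept peaks was not matched between the sets, and many H3K4me3 peaks fall in the same stretch. These shares are therefore a description, and their difference was not tested.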
